A study of Mus musculus with 38 samples.

Results

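The genes described here encode the enzymes of cholesterol and fatty acid synthesis, with the proteins that regulate them. They were taken by name from a deposited RNA sequencing table: 33 genes of the 25965 in it, each found once by its symbol. The sterol branch holds 18 genes, of which 17 encode enzymes from acetyl-CoA to cholesterol and 1 (Stard4) a sterol carrier. The fatty acid branch holds 10 genes, and 5 genes encode regulators. All 33 passed the filter on low values, a level of at least 0.5 RPM (reads scaled to the size of the library) in at least 3 libraries, as did 14980 genes in all.

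Cholesterol and fatty acids are both built from acetyl-CoA in the cytosol. The genes of both pathways are classic targets of the sterol regulatory element-binding proteins, membrane-bound transcription factors made by Srebf1 and Srebf2. When membranes are low in sterol, the escort protein Scap carries them from the endoplasmic reticulum to the Golgi, where proteases free their active part. Insig1 and Insig2 hold the complex back when sterol is plentiful. Serum lipoproteins are a source of cholesterol and fatty acids for cultured cells.

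The cells were E14, an XY embryonic stem cell line of the 129/Ola strain, grown without feeder cells on gelatin and passaged every 2 days. All cells were plated in serum medium and moved on the next day to 1 of 4 media. All of these held leukaemia inhibitory factor (LIF), a cytokine that sustains self-renewal. S/L was DMEM with 15% fetal bovine serum. The other media shared N2B27, a serum-free base, and differed in inhibitor: MEKi/L held PD03259010 (spelled as in the labels) at 1 µM, which blocks the kinase MEK, GSK3i/L held CHIR99021 at 3 µM, which blocks the kinase GSK3, and 2i/L held both at these doses. There were 3 libraries of each medium at 8 days, and 2 of GSK3i/L at 24 days (replicates 2 and 3), 14 in all. No group had N2B27 without an inhibitor, so loss of serum and addition of inhibitor cannot be told apart in any comparison with S/L. Those comparisons also share the 3 S/L libraries. The replicates are called biological, but the sources used here do not say how their cultures were separated, so a p-value speaks only of the spread among these libraries.

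Scaling totals of the 8 libraries in which they could be read from the values ran from 10551735 to 15757820 reads. In these libraries every member had at least 67 reads. The S/L and 8-day GSK3i/L columns (6 libraries) had been matched by the authors to 1 distribution, and the other 8 held plain values. GSK3i/L against S/L and 2i/L against MEKi/L are therefore within 1 treatment of the data, and the other 6 comparisons cross the 2 treatments. The mean log2 level of 30 long transcripts minus that of 30 short ones, a measure that moves with RNA quality and library preparation, was −2.44 ± 0.28 in S/L and 1.21 ± 0.13 in 2i/L (SD, n = 3). It was −0.33 ± 1.50 in MEKi/L, with replicate 1 at 1.39 and replicate 2 at −1.38. It was 1.00, −1.13 and −2.30 in replicates 1 to 3 of 8-day GSK3i/L and −3.29 and −2.65 at 24 days. Replicate 1 of MEKi/L and of 8-day GSK3i/L thus stood apart from its group. The scores of S/L and 2i/L did not overlap. A fit with the score as a covariate therefore cannot tell score from medium between those groups. All 7 embryonic stem cell markers were present in every group. The summed level of 8 fibroblast markers was 99.95 to 244 RPM in 8-day GSK3i/L and 7.49 to 17.3 RPM in the other groups. That of 5 neural markers was 114 to 157 RPM in S/L, 122 to 232 RPM in MEKi/L and 85.5 to 113 RPM in 2i/L, but 43.6 to 68.2 RPM in 8-day GSK3i/L and 28.0 to 28.7 RPM at 24 days. That of 6 primitive endoderm markers was 11.2 and 44.7 RPM at 24 days and 3.73 to 17.6 RPM elsewhere, and 5 trophoblast markers summed to 3.66 to 16.0 RPM. The part of these markers in the results was not tested.

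The promoters show what the 2 branches share in sequence apart from their expression. Of the 33 genes, 26 had a promoter in the RefSeq table used (build GRCm38.p6), and the 250 bases before the RefSeq start were searched on both strands for 3 motifs. The sterol regulatory element TCACNCCAC, to which the factors bind, was found in the windows of 331 of 27025 genes (1.22%) and in 1 of the 26, that of Hmgcs1. The CCAAT box (CCAAT), the site of the factor NF-Y, which is known to act beside the sterol regulatory factors, was found at 37.5% of all genes. It was present at 13 of the 14 sterol genes with a promoter (the exception was Acat2), at 4 of the 5 regulators (not Scap) and at 3 of the 7 fatty acid genes (Acss2, Me1 and Fasn). A gene with several RefSeq starts was counted if any of them matched. Dhcr7, Me1 and Tm7sf2 matched only in a window that lay wholly inside the gene. The lone window of Acaca, which had no match, also lay inside its gene. The E-box CACGTG was found at 6.86% of all genes and at 5 of the 26: Hsd17b7, Sc5d, Dhcr7, Scap and Insig1. These are letter matches and no binding was measured. Printed below are 3 sterol genes, chosen for the lone sterol regulatory element, the most CCAAT boxes and the most divergent response, and 3 fatty acid genes with and without a CCAAT box. Each is written 5′ to 3′ on the gene's strand, with the letters of TCACNCCAC and of CCAAT (or ATTGG, its complement) in capitals.
Hmgcs1, chr13:119690101-119690350, plus strand: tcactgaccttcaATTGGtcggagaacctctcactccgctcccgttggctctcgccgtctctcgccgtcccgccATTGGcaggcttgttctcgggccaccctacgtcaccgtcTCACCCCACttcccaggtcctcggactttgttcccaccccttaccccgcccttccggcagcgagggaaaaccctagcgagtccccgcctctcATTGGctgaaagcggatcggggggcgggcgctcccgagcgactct
Mvk, chr5:114444019-114444268, plus strand: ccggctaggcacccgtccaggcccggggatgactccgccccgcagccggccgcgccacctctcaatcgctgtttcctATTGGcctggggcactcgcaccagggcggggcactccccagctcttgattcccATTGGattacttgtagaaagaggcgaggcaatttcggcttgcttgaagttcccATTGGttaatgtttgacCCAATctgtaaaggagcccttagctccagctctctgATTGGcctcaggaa
Ebp, chrX:8193513-8193762, minus strand: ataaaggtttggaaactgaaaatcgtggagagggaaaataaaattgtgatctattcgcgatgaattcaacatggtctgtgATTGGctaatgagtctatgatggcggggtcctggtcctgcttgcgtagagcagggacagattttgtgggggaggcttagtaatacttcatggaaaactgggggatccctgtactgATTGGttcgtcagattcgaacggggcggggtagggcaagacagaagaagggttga
Fasn, chr11:120824548-120824797, minus strand: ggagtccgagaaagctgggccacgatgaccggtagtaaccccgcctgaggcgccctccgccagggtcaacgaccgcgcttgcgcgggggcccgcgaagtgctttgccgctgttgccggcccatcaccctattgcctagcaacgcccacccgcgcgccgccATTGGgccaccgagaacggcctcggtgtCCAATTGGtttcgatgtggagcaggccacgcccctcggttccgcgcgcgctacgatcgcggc
Acly, chr11:100528001-100528250, minus strand: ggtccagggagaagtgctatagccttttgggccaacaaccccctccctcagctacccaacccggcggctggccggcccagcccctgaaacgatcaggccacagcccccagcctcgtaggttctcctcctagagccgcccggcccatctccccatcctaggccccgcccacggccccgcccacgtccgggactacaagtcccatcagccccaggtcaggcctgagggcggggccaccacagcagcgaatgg
Elovl6, chr3:129532136-129532385, plus strand: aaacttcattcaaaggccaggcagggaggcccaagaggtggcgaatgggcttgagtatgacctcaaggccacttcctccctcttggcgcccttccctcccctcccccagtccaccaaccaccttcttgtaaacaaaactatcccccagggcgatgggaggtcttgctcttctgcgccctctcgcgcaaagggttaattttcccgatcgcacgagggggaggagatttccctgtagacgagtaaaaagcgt
Hmgcs1 held 3 CCAAT boxes beside its sterol regulatory element, Mvk held 5 and Ebp 2. Fasn held 3, of which 2 overlap as a palindrome. Acly and Elovl6 held none of the 3 motifs in these windows.

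In the 8-day serum-free media most genes of both branches were higher than in serum. All 9 serum-free libraries lay above all 3 S/L libraries for 23 of the 33 genes, a pattern shown by 15.6% of all genes tested: 13 of 18 sterol genes, 7 of 10 fatty acid genes and 3 of 5 regulators. Only Scap lay below S/L in all 9, as did 11.1% of all genes. Ranges overlapped for Acat2, Idi1, Lss, Tm7sf2, Ebp, Insig2, Acly, Acaca and Fasn. With limma on all genes (Benjamini-Hochberg adjusted p under 0.05), MEKi/L had 18 members higher than S/L and 1 lower, where 26.1% and 14.7% of all genes were called. GSK3i/L had 26 higher and 1 lower (16.8% and 14.4% of all genes). 2i/L had 28 higher and 1 lower (39.1% and 24.4%). With the long-minus-short score in the fit it had 16 and 1. Calls among all 14980 genes then went from 5863 and 3658 to 2480 and 1617. 2i/L against S/L crosses the 2 treatments of the data. It had 24 members higher and 3 lower after quantile normalization (4859 and 4218 of all genes). After median centring it had 22 and 3 (4125 and 4787), with the calls of Pmvk, Mvd, Lss, Cyp51, Insig1 and Acaca lost. The median log2 fold change of all genes was 0.17, 0.06 and 0.28 in MEKi/L, GSK3i/L and 2i/L. Centring each library on its median moved the last of these to −0.03.

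**Figure D1:**
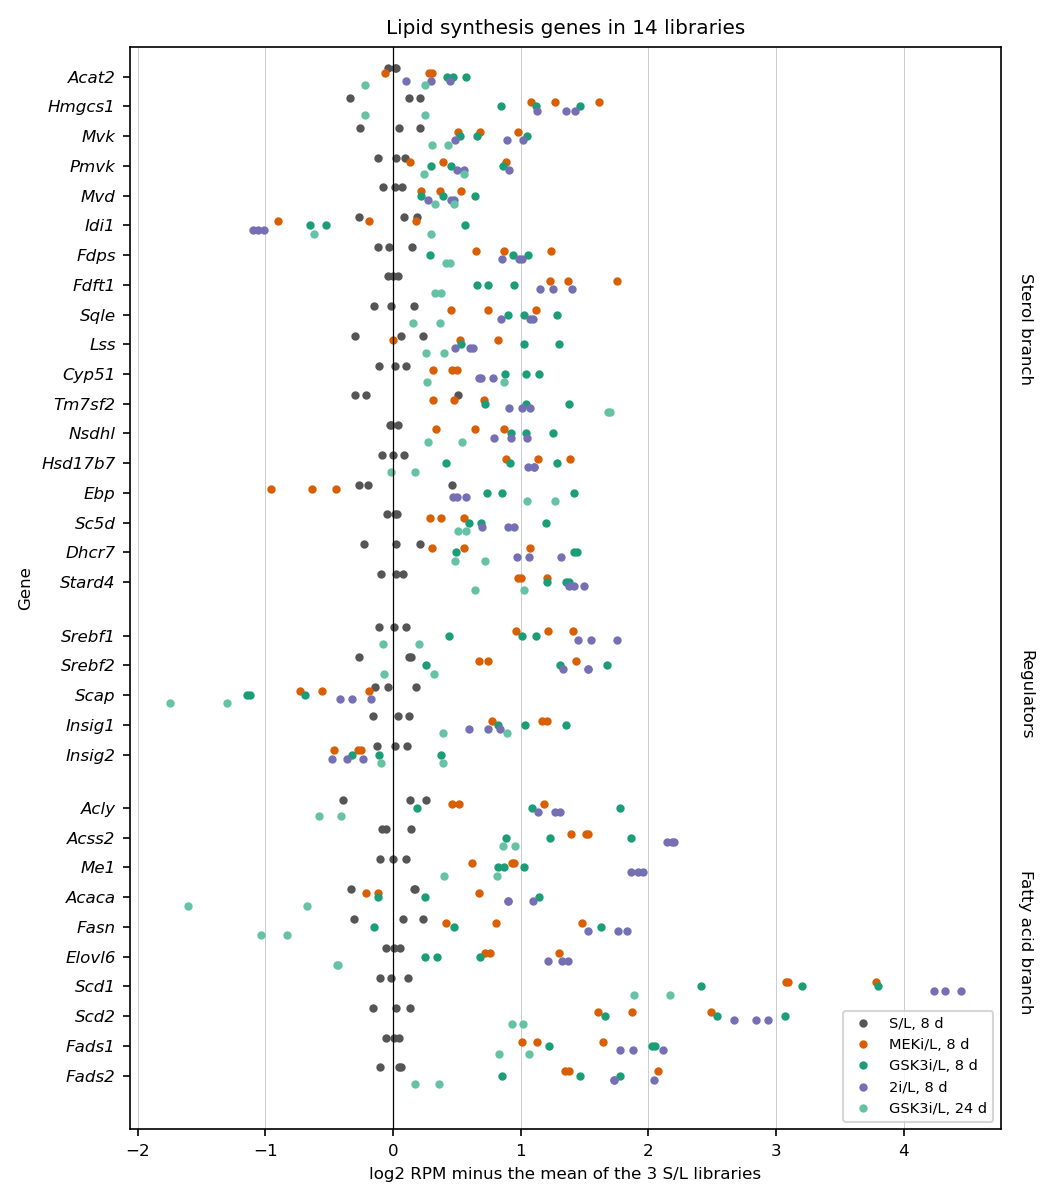
Log2 RPM of each gene in each of the 14 libraries minus the mean of the 3 S/L libraries (x axis), 1 row per gene, grouped as sterol branch, regulators and fatty acid branch, with 1 point per library coloured by medium. Most 8-day serum-free points lie right of 0, Scd1 reaches furthest, and Scap and Idi1 have points well left of 0.

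In the sterol branch, 8 of 18 genes were called higher in MEKi/L and 1 lower, with a median log2 fold change of 0.56. In GSK3i/L 16 were higher (median 0.91), and Pmvk (0.54, limma adjusted p = 0.064) and Idi1 (−0.20, adjusted p = 0.67) were not called. In 2i/L 15 were higher and 1 lower (median 0.89), of which 6 were higher by 2-fold or more, where 23.7% of all genes were. With the score in the fit 7 were higher there (median 0.54), where 2480 of all 14980 genes were.

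The mevalonate steps, which turn acetyl-CoA into isoprenoid units, ranged widely. Hmgcs1, whose cytosolic synthase makes HMG-CoA, was at 121, 167 and 177 RPM in the 3 S/L libraries. It reached 469, 369 and 324 RPM in MEKi/L, 422, 333 and 275 RPM in GSK3i/L and 410, 391 and 335 RPM in 2i/L. Every 8-day serum-free library was thus above every serum library, with log2 fold changes of 1.32 ± 0.22, 1.14 ± 0.22 and 1.30 ± 0.22 (SE; limma adjusted p = 3.8e-04, 0.0019 and 2.1e-04). Hmgcs1 had the largest difference of the 7 mevalonate genes in each medium. Mvk (mevalonate kinase) went from 23.4 ± 3.76 RPM in S/L to 38.7 ± 6.43, 39.3 ± 7.68 and 40.9 ± 7.50 RPM, and Fdps (farnesyl diphosphate synthase) from 66.6 ± 6.38 to 127 ± 26.7, 116 ± 30.4 and 128 ± 7.55 RPM in MEKi/L, GSK3i/L and 2i/L (SD, n = 3). Both were called higher in all 3 media. The differences of Pmvk (phosphomevalonate kinase, 0.47, 0.54 and 0.65) were called in 2i/L only, and those of Mvd (mevalonate diphosphate decarboxylase, 0.37, 0.42 and 0.40) in GSK3i/L and 2i/L, whether they differ between media not being shown by these calls. The Mvd calls were lost on leaving out any 1 of 5 libraries in GSK3i/L and of 4 in 2i/L, and the Fdps call in GSK3i/L without any of 3. The Mvk calls in MEKi/L and in GSK3i/L, and the Pmvk call in 2i/L, were each lost without any of 2. Mvd lies wholly within a gene model on the opposite strand (Gm20388, up to 109 RPM). As it is not given whether reads were counted by strand, its level is uncertain. Acat2, the cytosolic thiolase, had differences of 0.17, 0.49 and 0.28, called in GSK3i/L, though that call was lost on leaving out any 1 of the 6 libraries (adjusted p 0.053 to 0.10).

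Idi1, the isomerase that follows Mvd, was the gene at odds with the branch. Its levels were 21.7, 15.9 and 20.3 RPM in S/L and 8.92, 9.48 and 9.19 RPM in 2i/L, so that the groups did not overlap. The fall was 2.08-fold (log2 fold change −1.06 ± 0.34, limma adjusted p = 0.014). In MEKi/L it was at 10.2, 16.8 and 21.7 RPM and in GSK3i/L at 12.1, 13.3 and 28.3 RPM, within or around the serum range, and was not called. The lowest of each trio was replicate 1, the library with the highest long-minus-short score. With that score in the fit the 2i/L difference was 0.23 (adjusted p = 0.69), and without S/L replicate 1 it was −0.96 (adjusted p = 0.051).

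The squalene steps commit isoprenoids to sterols. Fdft1, squalene synthase, was at 39.0, 41.4 and 40.2 RPM in S/L, 135, 104 and 94.2 RPM in MEKi/L, 77.3, 63.5 and 67.5 RPM in GSK3i/L and 106, 95.7 and 89.0 RPM in 2i/L. The serum-free groups were all clear of serum, and the MEKi/L and GSK3i/L libraries did not overlap each other. Its difference in MEKi/L was the largest of the sterol branch there, 1.45 ± 0.16 (limma adjusted p = 1.1e-05). It shares 767 bases with Ctsb on the opposite strand (up to 213 RPM). Sqle, squalene epoxidase, rose from 87.8 ± 9.59 RPM to 152 ± 35.6, 185 ± 25.7 and 176 ± 16.4 RPM. Lss, lanosterol synthase, was at 55.4 ± 10.1 RPM in S/L and at 76.8 ± 21.0, 109 ± 28.1 and 81.5 ± 4.13 RPM, and was called in GSK3i/L (0.95) and 2i/L (0.57). The 2i/L call of Lss was lost without any of 5 libraries, and with the score in the fit the difference was −0.29 (adjusted p = 0.36).

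After lanosterol, the 7 genes of the last steps were all called higher in GSK3i/L, 6 in 2i/L and 2 in MEKi/L, where Ebp was lower. Ebp (chromosome X, 8185329 to 8193512, GRCm38) encodes the isomerase that shifts a double bond in the sterol ring. It was at 33.7, 20.2 and 21.3 RPM in S/L and at 12.6, 17.9 and 15.7 RPM in MEKi/L. In GSK3i/L it was at 44.1, 40.5 and 65.3 RPM and in 2i/L at 34.6, 36.3 and 33.8 RPM. All MEKi/L libraries were below all S/L libraries, and those of GSK3i/L were above them, with log2 fold changes of −0.68 ± 0.22 (limma adjusted p = 0.027) and 1.00 ± 0.22 (adjusted p = 0.0049). The 2i/L difference, 0.52, was not called (adjusted p = 0.058), and the MEKi/L call was lost without S/L replicate 1 (−0.45, adjusted p = 0.14) or MEKi/L replicate 1 or 3. Cyp51, lanosterol demethylase, was at 79.2, 68.7 and 74.6 RPM in S/L, 105, 92.0 and 102 RPM in MEKi/L, 153, 136 and 164 RPM in GSK3i/L and 120, 127 and 118 RPM in 2i/L. The 4 media had separate ranges, and Cyp51 was called higher in GSK3i/L (1.02) and 2i/L (0.71) but not in MEKi/L (0.42, adjusted p = 0.053). After median centring its 2i/L difference was 0.41 and not called (limma adjusted p = 0.063).

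Hsd17b7 (a sterol ketone reductase) rose from 9.85 ± 0.58 RPM to 21.8 ± 3.79, 18.6 ± 5.45 and 20.9 ± 0.39 RPM. Nsdhl (a demethylating sterol dehydrogenase) rose from 26.5 ± 0.63 RPM to 41.1 ± 7.41, 55.9 ± 6.48 and 50.4 ± 4.41 RPM. These were the only genes of the last steps called in all 3 media. Sc5d (a sterol desaturase) had differences of 0.41, 0.83 and 0.85, and Dhcr7 (which makes cholesterol from its last precursor) 0.64, 1.12 and 1.12, both called in GSK3i/L and 2i/L. Tm7sf2, a sterol reductase, was called in the same 2 media (1.05 and 0.99, with 0.50 in MEKi/L). Its S/L libraries were at 30.4, 18.5 and 17.4 RPM, so replicate 1 overlapped MEKi/L, and it shares 532 bases with a gene model on its own strand.

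Stard4, which moves sterol between membranes, was at 37.5, 33.2 and 36.0 RPM in S/L. It was at 81.7, 70.9 and 70.0 RPM in MEKi/L, 92.3, 91.0 and 81.8 RPM in GSK3i/L and 92.1, 99.9 and 94.6 RPM in 2i/L. No serum-free value came near the serum range. Stard4 had the largest difference of the sterol branch in GSK3i/L (1.31 ± 0.14) and in 2i/L (1.43 ± 0.14, limma adjusted p = 2.8e-06).

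Among the regulators, Srebf1, Srebf2 and Insig1 were higher in all 3 media and Scap was not. Srebf1 was at 64.5, 69.0 and 59.7 RPM in S/L, 170, 126 and 149 RPM in MEKi/L, 140, 129 and 86.95 RPM in GSK3i/L and 175, 217 and 188 RPM in 2i/L. All were above serum, by 1.19 ± 0.19, 0.85 ± 0.19 and 1.58 ± 0.19 on the log2 scale (limma adjusted p = 3.0e-04, 0.0051 and 1.4e-05). Srebf2 went from 110, 146 and 144 RPM to 357, 211 and 221 RPM in MEKi/L, 422, 328 and 159 RPM in GSK3i/L and 333, 380.5 and 382 RPM in 2i/L. Its differences were 0.95, 1.08 and 1.46 (SE 0.31 each), with the call lost without any of 2 libraries in MEKi/L and of 3 in GSK3i/L. In 8-day GSK3i/L the library with the highest long-minus-short score (replicate 1) had the highest Srebf2 and the one with the lowest score (replicate 3) the lowest. With the score in the fit Srebf2 was not called in MEKi/L (0.19, adjusted p = 0.42) or 2i/L (0.15, adjusted p = 0.66). Insig1, itself a target of these factors, went from 85.1 ± 8.35 RPM to 177 ± 27.6, 180 ± 33.6 and 140 ± 11.9 RPM. After median centring its 2i/L difference was 0.42 and not called (limma adjusted p = 0.10). Insig2 was not called in any comparison, with 21.5 ± 1.70 RPM in S/L and 17.1 ± 1.30, 21.6 ± 5.54 and 16.8 ± 1.39 RPM without serum.

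Scap (chromosome 9, 110333288 to 110384946) moved the other way. It was at 28.7, 35.9 and 30.8 RPM in S/L, 27.9, 19.1 and 21.5 RPM in MEKi/L, 19.7, 14.3 and 14.6 RPM in GSK3i/L and 28.1, 23.7 and 25.3 RPM in 2i/L. All serum-free libraries were below all serum libraries, by little in 2i/L. The difference was called in GSK3i/L (−0.99 ± 0.20, limma adjusted p = 0.0023) and not in MEKi/L (−0.49, adjusted p = 0.059) or 2i/L (−0.30, adjusted p = 0.19). After quantile normalization of all libraries Scap was also called lower in MEKi/L (−0.66) and 2i/L (−0.62).

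The fatty acid branch had larger differences from serum than the sterol branch. In MEKi/L 7 of 10 genes were called higher (median log2 fold change 1.09), in GSK3i/L 7 (1.17) and in 2i/L all 10 (1.87), 9 of them by 2-fold or more. The desaturases led. Scd1 (chromosome 19, 44394451 to 44407709), the stearoyl-CoA desaturase that makes monounsaturated fatty acids, was at 29.0, 24.9 and 26.4 RPM in S/L. It was at 367, 228 and 226 RPM in MEKi/L, 372, 246 and 142 RPM in GSK3i/L and 504, 583 and 535 RPM in 2i/L. The lowest serum-free value was far above the highest in serum, and 2i/L lay above all libraries of the other media. Scd1 was 9.97-fold higher in MEKi/L (log2 fold change 3.32 ± 0.28), 8.81-fold in GSK3i/L (3.14 ± 0.28) and 20.2-fold in 2i/L (4.34 ± 0.28, limma adjusted p = 6.8e-08), the largest difference among the 33 genes in each medium.

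Scd2, its neighbour (chromosome 19, 44293676 to 44306864), was at 205, 181 and 221 RPM in S/L, 1130, 612 and 737 RPM in MEKi/L, 1689, 1170 and 636 RPM in GSK3i/L and 1443, 1543 and 1282 RPM in 2i/L. Again no ranges touched that of serum, with differences of 1.99, 2.42 and 2.81 (SE 0.30 each). Scd1 and Scd2 are close paralogues, and how reads that match both were counted is not given in the sources used here. Fads1 and Fads2, which desaturate polyunsaturated fatty acids, rose from 41.2 ± 1.47 and 15.8 ± 0.98 RPM in S/L. Fads1 was at 100.5 ± 24.5, 145 ± 42.4 and 157 ± 19.1 RPM, and Fads2 at 49.0 ± 14.9, 41.9 ± 12.8 and 56.4 ± 7.31 RPM, in MEKi/L, GSK3i/L and 2i/L. Elovl6, which elongates palmitate, was at 79.2, 73.4 and 76.6 RPM in S/L, 188, 129 and 126 RPM in MEKi/L, 122, 97.0 and 90.6 RPM in GSK3i/L and 177, 191 and 197 RPM in 2i/L. It lay above serum in all 9 libraries, was called in MEKi/L (0.93) and 2i/L (1.30), and had the smallest difference of the branch in GSK3i/L (0.42, adjusted p = 0.077).

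Genes that supply the pathway showed 2 patterns. Acss2, which makes acetyl-CoA from acetate, was at 8.75, 10.3 and 8.93 RPM in S/L, 26.8, 26.5 and 24.5 RPM in MEKi/L, 21.7, 33.9 and 17.2 RPM in GSK3i/L and 42.2, 42.6 and 41.1 RPM in 2i/L. Me1, the malic enzyme that gives NADPH, was at 14.7, 15.8 and 13.6 RPM in S/L, 28.0, 28.3 and 22.5 RPM in MEKi/L, 26.7, 29.8 and 25.9 RPM in GSK3i/L and 53.3, 56.9 and 55.5 RPM in 2i/L. For both, the single-inhibitor media at 8 days lay between serum and 2i/L with no overlap on either side. Acss2 lies over Gss on the opposite strand for 22544 bases (Gss up to 190 RPM), so its level is uncertain without knowledge of strand counting. Acly, which makes acetyl-CoA from citrate, was at 242, 377 and 348 RPM in S/L, 717, 435 and 452 RPM in MEKi/L, 1082, 672 and 360 RPM in GSK3i/L and 762, 784 and 695 RPM in 2i/L. Acly was tight in 2i/L but widely spread in GSK3i/L, where replicate 3 was inside the serum range, and it was called in GSK3i/L (1.02, limma adjusted p = 0.031) and 2i/L (1.24). The GSK3i/L call of Acly was lost without any of 4 libraries (adjusted p 0.056 to 0.13).

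The 2 enzymes that build the chain itself were less separated from serum. Fasn, the fatty acid synthase, was at 175, 229 and 255 RPM in S/L, 604, 289 and 379 RPM in MEKi/L, 670, 301 and 196 RPM in GSK3i/L and 735, 770 and 625 RPM in 2i/L. Acaca, the acetyl-CoA carboxylase that makes malonyl-CoA, was at 12.3, 17.4 and 17.3 RPM in S/L, 24.7, 14.3 and 13.4 RPM in MEKi/L, 34.2, 18.4 and 14.2 RPM in GSK3i/L and 28.9, 33.04 and 28.8 RPM in 2i/L. Only in 2i/L did every library exceed serum clearly for both. Fasn was called there (1.71 ± 0.36, limma adjusted p = 0.0012), as was Acaca (0.96 ± 0.33, adjusted p = 0.020), which had the smallest difference of the branch in MEKi/L (0.11) and 2i/L. The 2i/L call of Acaca was lost without S/L replicate 1 or 2i/L replicate 2 (limma adjusted p = 0.083 and 0.061). In each single-inhibitor medium replicate 1, with the highest long-minus-short score, had the highest level of Acly, Fasn and Acaca. The same held for Elovl6, Scd1, Scd2, Fads1 and Fads2, but not for Me1 or, in GSK3i/L, for Acss2. With that score in the fit the 2i/L differences of Acly, Fasn and Acaca were −0.15, 0.05 and −0.44, none of them called. In that fit 7 fatty acid genes, Scd1 among them, stayed called. As the scores of S/L and 2i/L did not overlap, this fit cannot tell score from medium, and the part of the score was not tested.

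**Figure D2:**
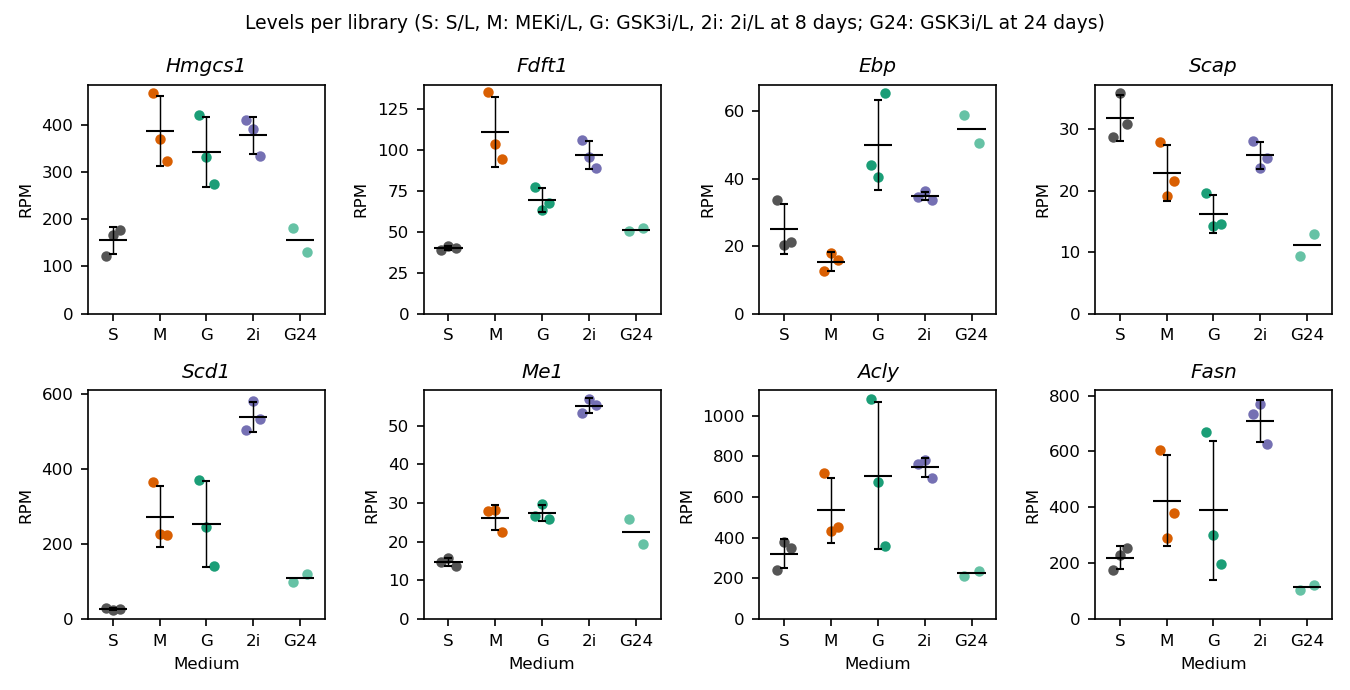
RPM per library (y axis) of 8 genes in S/L, MEKi/L, GSK3i/L and 2i/L at 8 days and GSK3i/L at 24 days (x axis), with points for libraries, a line for the mean and bars for the SD where n = 3. Ebp is lowest in MEKi/L, Scd1 and Me1 are highest in 2i/L, Acly and Fasn are scattered in GSK3i/L at 8 days, and Scap is lowest in GSK3i/L.

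Set side by side within each library, the fatty acid branch exceeded the sterol branch in all 9 serum-free libraries at 8 days, by 0.04 to 0.99. The median over each branch of log2 RPM minus the S/L mean was taken. As the S/L libraries themselves set the zero, their values are held near 0 and give no measure of spread. For the sterol branch it was 0.84, 0.60 and 0.49 in MEKi/L, 1.04, 0.87 and 0.80 in GSK3i/L and 0.90, 1.01 and 0.82 in 2i/L. For the fatty acid branch it was 1.50, 1.04 and 0.91, then 1.70, 1.27 and 0.84, then 1.77, 2.00 and 1.80. The gap between branches was therefore widest in 2i/L, 0.87 to 0.99, against 0.41 to 0.66 in MEKi/L, 0.04 to 0.66 in GSK3i/L and 0.01 to 0.06 in S/L. In 8-day GSK3i/L the gap was 0.66, 0.40 and 0.04 in replicates 1 to 3, the order of their long-minus-short scores (1.00, −1.13 and −2.30). In MEKi/L it was also widest in replicate 1, which had the highest score there, though replicates 2 and 3 did not follow their scores. The libraries at 24 days, with scores of −3.29 and −2.65, had gaps of 0.04 and 0.03. The part of the score in the gap was not tested. The sterol ranges of GSK3i/L and 2i/L overlapped, while the fatty acid values of 2i/L were above those of all other libraries. With the score in the fit the 2i/L medians were 0.54 for the sterol and 1.00 for the fatty acid branch.

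**Figure D3:**
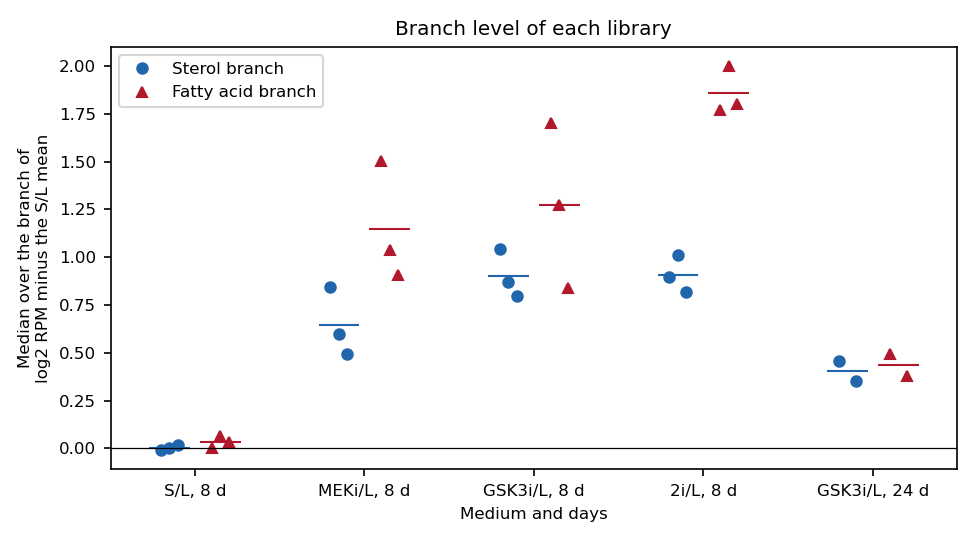
Median over the 18 sterol genes (circles) and the 10 fatty acid genes (triangles) of log2 RPM minus the S/L mean (y axis), 1 point per library, by medium and day (x axis), with a line at each group mean. The branches part most in 2i/L and meet in GSK3i/L at 24 days.

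Comparisons among the serum-free media ask what each inhibitor adds with the base medium held constant. 2i/L against GSK3i/L, which differ by the MEK inhibitor, had 8 of 33 members higher, where 19.8% of all genes were called higher and 8.02% lower. Of these 5 were in the fatty acid branch (median 0.69): Scd1 (1.20 ± 0.28), Fasn (1.05 ± 0.36), Me1 (1.01 ± 0.16, limma adjusted p = 4.1e-04), Elovl6 (0.88 ± 0.17) and Acss2 (0.85 ± 0.20). The others were Srebf1 (0.73), Scap (0.68) and Fdft1 (0.48). The smallest fatty acid difference was that of Fads1 (0.16). The sterol branch had a median of −0.01, from −0.85 for Idi1 (adjusted p = 0.074) to 0.48 for Fdft1. This comparison crosses the 2 treatments of the data and its counts depend on the scaling: 5 higher and 4 lower after quantile normalization, and 3 higher and 8 lower after median centring, while among all genes the share of calls that were higher went from 71.2% to 54.7% and 37.9%. Scd1, Me1 and Elovl6 were the 3 called under both. With the score in the fit 4 members were higher and 2 lower, and the fatty acid median was 0.040. Of all 14980 genes 2071 were then higher and 1121 lower, against 2969 and 1202 in the main fit. Without 8-day GSK3i/L replicate 2 the count was 5, without replicate 1 it was 10, and with only the compared groups it was 5. The calls of Fasn and Fdft1 were each lost without any of 5 libraries (adjusted p 0.077 to 0.18 and 0.056 to 0.12) and that of Scap without any of 4.

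2i/L against MEKi/L, which differ by the GSK3 inhibitor and lie within 1 treatment of the data, had 4 members higher, where 6.81% of all genes were called higher and 6.11% lower. They were Ebp (1.19 ± 0.22, limma adjusted p = 0.0034), Me1 (1.08 ± 0.16, adjusted p = 5.4e-04), Scd1 (1.02 ± 0.28) and Acss2 (0.70 ± 0.20). Ebp was at 33.8 RPM or above in 2i/L and 17.9 RPM or below in MEKi/L. The fatty acid median was 0.75 with all 10 genes above 0, from 0.24 for Fads2 to 1.08 for Me1, and 0.27 with the score in the fit. The sterol median was 0.15, from −0.75 for Idi1. The calls of Scd1 and Acss2 were lost on leaving out any library other than MEKi/L replicate 1, which left 2, and without that replicate 9 members were higher and Idi1 was lower (−1.05, adjusted p = 0.038). With only the compared groups 7 members were higher.

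Between the single inhibitors 3 members differed, all of the sterol branch, where 12.2% of all genes were higher in MEKi/L and 5.65% lower. Ebp was 3.20-fold lower in MEKi/L than in GSK3i/L (−1.68 ± 0.22, limma adjusted p = 1.3e-04) with a wide gap between the groups. Cyp51 was lower in MEKi/L (−0.60 ± 0.17, adjusted p = 0.021) and Fdft1 was higher (0.67 ± 0.16, adjusted p = 0.0082). In the fatty acid branch the median was 0.04, from −0.51 for Fads1 to 0.50 for Elovl6 (adjusted p = 0.15 and 0.063). The count of lower members was 6 without 8-day GSK3i/L replicate 3, 5 after quantile normalization and 7 after median centring, and 1 without MEKi/L replicate 2 or 3, where Cyp51 was lost. Without 8-day GSK3i/L replicate 1 the count of higher members was 3. With the score in the fit 3 were higher and 11 lower, of which 1 and 4 were fatty acid genes. Of all 14980 genes 3088 were then higher and 1677 lower, against 1823 and 847 in the main fit. With only the compared groups limma called 0 higher and 1 lower (1 and 3 at an unadjusted p under 0.05). Of all genes it then called 1106 higher and 485 lower.

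**Figure D4:**
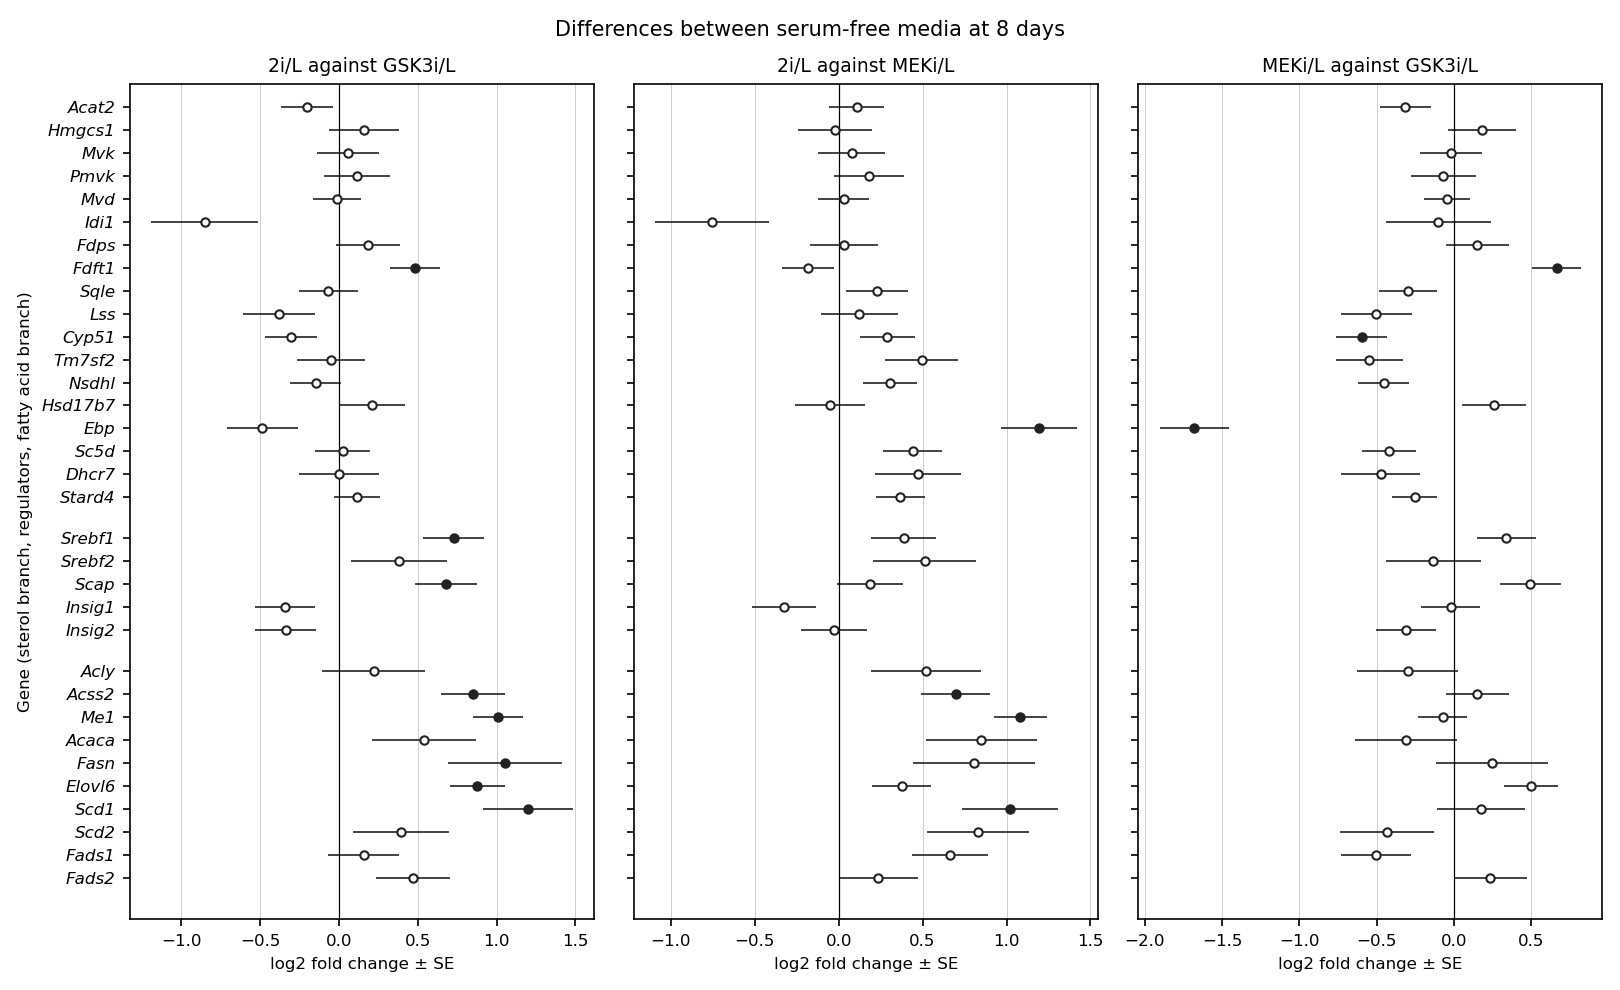
Log2 fold change ± SE (x axis) of each gene (y axis) for 2i/L against GSK3i/L, 2i/L against MEKi/L and MEKi/L against GSK3i/L at 8 days, with filled points where the limma adjusted p was under 0.05. Filled points lie mostly among the fatty acid genes in the first panel, and Ebp stands apart in the other panels.

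After 24 days in GSK3i/L fewer members were called above serum than after 8, from 2 libraries in place of 3. By sign alone 27 of the 33 were above serum, against 30 at 8 days. Against S/L, 10 members were higher and 2 lower (10.2% and 14.9% of all genes). Medians were 0.40 for the sterol and 0.44 for the fatty acid branch against −0.12 for all genes. With the score in the fit 18 members were higher and 4 lower. Of all 14980 genes 2482 were then higher and 3798 lower, against 1524 and 2239 in the main fit. In the sterol branch Tm7sf2, at 68.8 and 69.5 RPM, was 3.23-fold above serum (1.69 ± 0.24, limma adjusted p = 2.0e-04), and Ebp, at 58.9 and 50.6 RPM, was higher by 1.16 ± 0.25. Stard4 (0.83) and Cyp51 (0.57) were the others called, and the differences ranged down to −0.16 for Idi1, with that of Acat2 the nearest to 0 (0.01). Of the fatty acid branch Scd1 was 4.07-fold higher (98.7 and 120 RPM; 2.03 ± 0.32), and Scd2 (0.98), Fads1 (0.95), Acss2 (0.91) and Me1 (0.61) were also called. Acaca, at 5.09 and 9.69 RPM, was below all S/L libraries (−1.14 ± 0.37, adjusted p = 0.036). Fasn (106 and 122 RPM), Acly (212 and 239 RPM) and Elovl6 (56.7 and 56.3 RPM) were also below every S/L library, by −0.94, −0.49 and −0.43, but were not called (adjusted p = 0.11, 0.35 and 0.12). Of the regulators Insig1 was higher (0.64) and Scap lower, at 9.42 and 12.9 RPM (−1.53 ± 0.22, adjusted p = 2.0e-04). Without S/L replicate 3 or 24-day replicate 2 the members called higher were 6, and Acaca was not called without S/L replicate 2 or 3 or 24-day replicate 2. The Scd2 call was lost without any 1 of the 5 libraries (adjusted p 0.082 to 0.20), those of Cyp51 and Insig1 without any of 4, that of Me1 without any of 2, and those of Acss2 and Fads1 without 24-day replicate 3.

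Between 8 and 24 days of GSK3i/L, 13 members fell, where 13.2% of all genes were called lower and 4.30% higher (all-gene median −0.19). They were 8 of 10 fatty acid genes (median −1.10), 4 of 18 sterol genes (median −0.44) and Srebf1 (−0.79). Fasn fell by 1.59 ± 0.41 on the log2 scale (limma adjusted p = 0.024), Acaca by 1.57 ± 0.37, Acly by 1.51 ± 0.37 and Scd2 by 1.44 ± 0.34. Elovl6 (−0.86), Scd1 (−1.11), Fads1 (−0.82) and Fads2 (−1.10) fell too, and Acss2 (−0.42) and Me1 (−0.29, the smallest fall) were not called. In the sterol branch Hmgcs1 (−1.13 ± 0.25), Sqle (−0.81), Hsd17b7 (−0.80) and Nsdhl (−0.66) fell. Tm7sf2 (0.65, adjusted p = 0.073) and Ebp (0.16, adjusted p = 0.67) stood above their 8-day means. These falls rest on 2 libraries against 3, of which 8-day replicate 1 and replicate 3 lay far apart. Without 8-day replicate 1 only Hmgcs1 was still called, where 490 of all 14980 genes were lower. Without 8-day replicate 3 the count was 19, where 3700 of all genes were lower. With a single 24-day library left, the difference of Fasn was −1.48 without replicate 2 and −1.69 without replicate 3. As 1 library shows no spread at 24 days, these values do not show that the calls hold. With only these 5 libraries in the fit, limma called 0 of the 33 (13 lower at an unadjusted p under 0.05). Of all 14980 genes it then called only 142 lower and 7 higher. The long-minus-short score was lower at 24 days than in any 8-day GSK3i/L library. With the score in the fit 4 members were lower, as were 513 of all 14980 genes (1972 in the main fit). Its part in the falls was not tested.

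**Figure D5:**
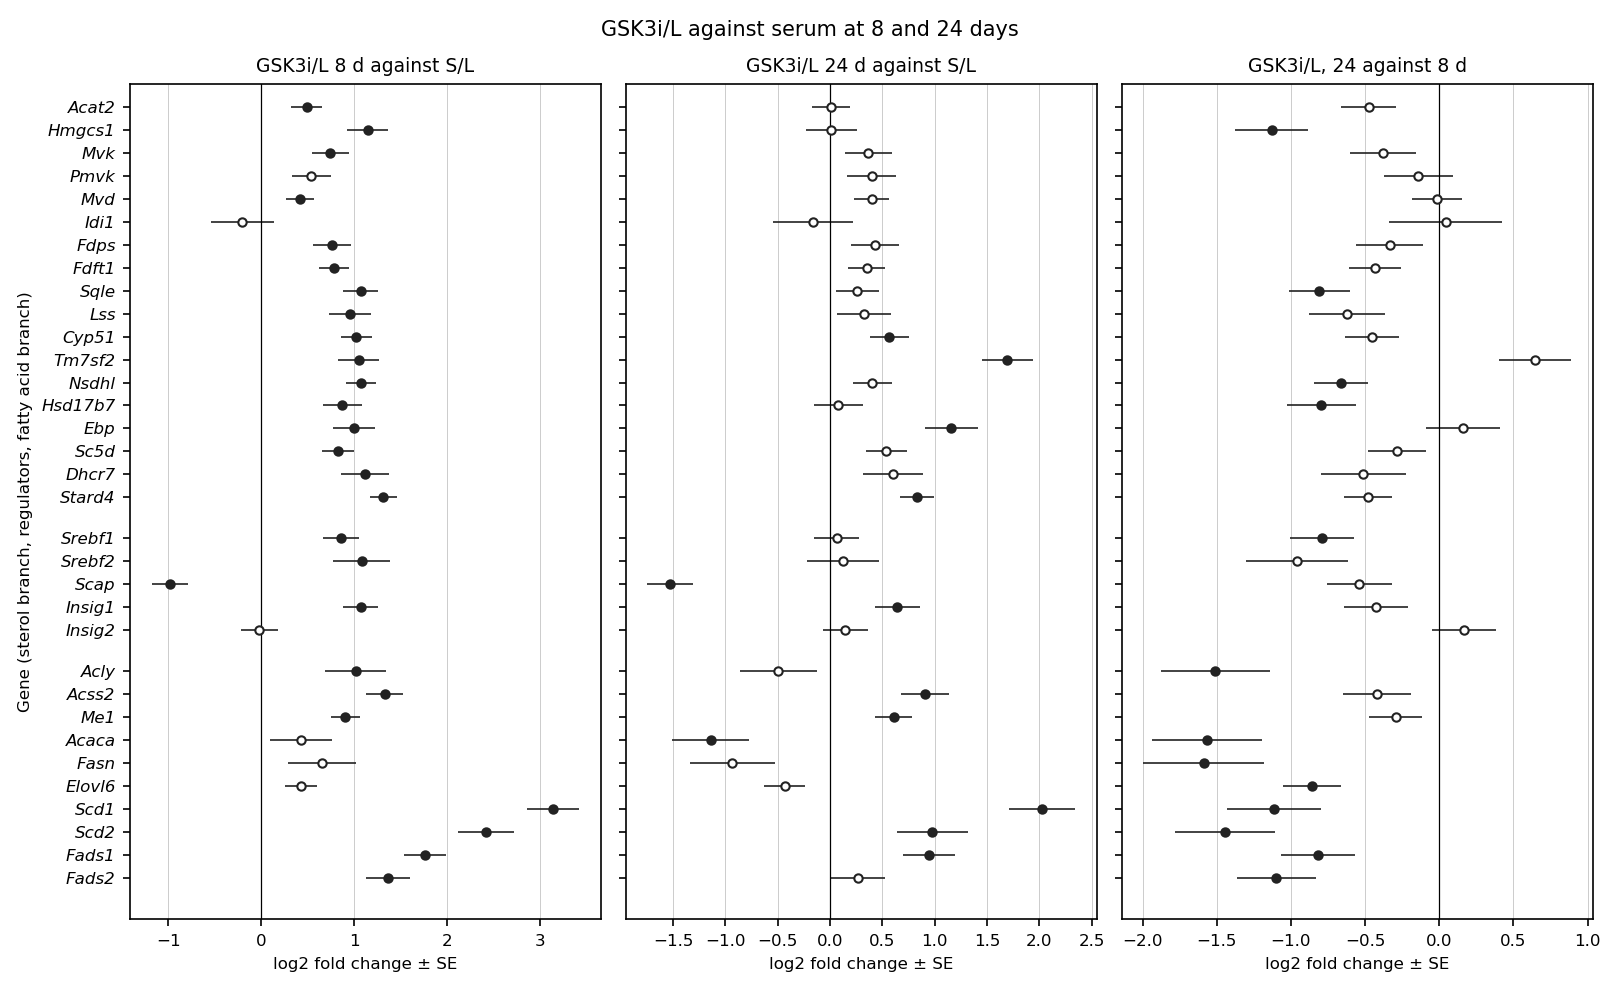
Log2 fold change ± SE (x axis) of each gene (y axis) for GSK3i/L at 8 days against S/L, at 24 days against S/L and at 24 against 8 days, with filled points where the limma adjusted p was under 0.05. Fatty acid genes lie right of 0 at 8 days, and Acaca, Fasn, Acly and Elovl6 lie left of 0 at 24 days. All sterol genes but Idi1 lie right of 0 against S/L at both times. At 24 days Tm7sf2 and Ebp lie furthest right among them, and Acat2 and Hmgcs1 barely so.

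A list of 37 related lipid genes, for uptake, efflux, processing of the regulators and use of fatty acids, was tested in the same fit. In MEKi/L 20 were higher than in S/L and 3 lower (median 0.55), in GSK3i/L 16 and 1 (0.64), in 2i/L 23 and 4 (0.74) and at 24 days 5 and 3 (0.06). As shares, 54.1% were higher and 8.11% lower in MEKi/L (26.1% and 14.7% of all genes), 43.2% and 2.7% in GSK3i/L (16.8% and 14.4%), 62.2% and 10.8% in 2i/L (39.1% and 24.4%), and at 24 days 13.5% and 8.11%, near the 10.2% and 14.9% of all genes. The largest differences in MEKi/L were in genes that sterols are known to induce through the nuclear receptor LXR. Mylip, whose product degrades lipoprotein receptors, went from 3.12 to 22.6 RPM (2.88 ± 0.26), Abca1, a cholesterol exporter, from 7.67 to 53.5 RPM (2.73 ± 0.31) and Abcg1, another exporter, from 8.90 to 41.1 RPM (2.18 ± 0.24, limma adjusted p = 1.5e-05). In 2i/L Abca1 (3.05 ± 0.31) and Mylip (2.73 ± 0.26) led again, with Cpt1a, which brings fatty acids into mitochondria for oxidation, at 152 against 24.4 RPM (2.72 ± 0.37). In GSK3i/L the leading genes were Fabp5, a fatty acid carrier, which fell from 34.8 to 10.5 RPM (−1.82 ± 0.37), Scarb1, a lipoprotein receptor (1.65 ± 0.18), and Apoe, an apolipoprotein (1.65 ± 0.25). Abca1 was at 11.3 RPM there, and it was lower in GSK3i/L than in MEKi/L by 2.27 ± 0.31 and than in 2i/L by 2.59 ± 0.31 (adjusted p = 1.5e-04 and 5.1e-05).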

How the data were processed

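RNA levels of 33 lipid synthesis genes were read from 1 deposited table of 14 RNA sequencing libraries. The 24 bisulfite samples of the series were not analysed here. Libraries were strand-specific (NEBNext Ultra II Directional), from poly(A) RNA, with 50-base single-end reads, per the labels' protocols. Tools named are HISAT2, Trim Galore 0.6.5 and Bismark 0.22.3, with the build GRCm38, per the submitters' processing notes. Not given in the sources used here: HISAT2's version, the annotation, strand counting and the handling of reads with several matches.

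The authors deposited 1 log2 RPM value (reads scaled to library size) per gene and library. In 8 libraries 100% of the values up to 200 reads were whole reads within 0.02 reads, and a gene with 0 reads stood at 0.9 reads. The 6 S/L and 8-day GSK3i/L libraries had instead been matched to 1 distribution, and above 2 RPM their sorted log2 values lay within 0.08 of each other. Depth is unknown for these 6.

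The test was limma's (3.58.1, R 4.3.3) on log2 values, with trended and robust empirical Bayes variances. A single fit took all 14 libraries, with group as its term, and 14980 genes that reached 0.5 RPM in 3 or more libraries. A member was called at a Benjamini-Hochberg adjusted p under 0.05 over all genes tested, with no minimum fold. Levels are means ± SD in RPM, and differences are log2 fold changes ± SE. The count test planned for raw counts was not used, as the unit is log2 RPM. The method was tested on simulated data. The main fit did not pair libraries by number. Deviations from the group means correlated at 0.67, 0.12 and 0.40 in same-numbered libraries of MEKi/L and 8-day GSK3i/L. MEKi/L replicate 2 and 8-day GSK3i/L replicate 3 correlated at 0.38, so these values do not settle whether the numbers pair the cultures. Groups came from the sample labels. Alternatives were no filter, log2(RPM + 1), quantile normalization of all libraries, median centring, variances without trend or robustness, the long-minus-short score as covariate, the replicate number as a block, only the compared groups in the fit, and each library left out. In each comparison and branch the members with the largest and smallest differences were named, with every member called against its branch. Of the 37 related genes at most 3 were named in a comparison. One exception is Abca1, which is also given in GSK3i/L. The members and lists were chosen with earlier results of these data known. Promoter sequences are from RefSeq (GRCm38.p6).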

Additional observations from a re-analysis of the deposited data

Results flagged for a closer look

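Of the differences from serum, 15 were picked out because they differed between media or times by a direct limma test, either with opposite signs in different 8-day media or between 8 and 24 days of GSK3i/L. Ebp was the member with opposite signs at 8 days. It was below serum in MEKi/L (−0.68) and above it in GSK3i/L (1.00), a difference of −1.68 (adjusted p = 1.3e-04). Its 2i/L value (0.52) differed from that of MEKi/L by 1.19 (adjusted p = 0.0034).

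In GSK3i/L, 13 members had a smaller or reversed difference from serum at 24 than at 8 days. In the fatty acid branch the 24-day value minus the 8-day value was −1.59 for Fasn, −1.57 for Acaca, −1.51 for Acly, −1.44 for Scd2, −1.11 for Scd1, −1.10 for Fads2, −0.86 for Elovl6 and −0.82 for Fads1. In the sterol branch it was −1.13 for Hmgcs1, −0.81 for Sqle, −0.80 for Hsd17b7 and −0.66 for Nsdhl, and it was −0.79 for the regulator Srebf1. Acaca was the member of this group called below serum at 24 days (−1.14). The limma adjusted p ran from 0.013 (Hmgcs1) to 0.041 (Fads1). As the 13 were picked by this same test, these p-values are no further support. Without 8-day replicate 1 only Hmgcs1 kept its call.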

How the results depend on the processing

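Each difference was recomputed under other settings and with single libraries left out. Of 3663 member values so obtained 3305 kept their direction and their side of the threshold, 242 lost the call, 110 gained one and 6 reversed. A count is given where it changed by over 1.5 times and a median where it changed by more than the larger SD of its groups. None of the 32 counts and medians changed so far with log2(RPM + 1), where Mvd lost its call in GSK3i/L against S/L. Elsewhere the cause was not tested.

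All 6 reversals came with the long-minus-short score in the fit: Acaca −0.70 in MEKi/L against S/L, Idi1 0.23, Lss −0.29, Acly −0.15 and Acaca −0.44 in 2i/L against S/L, and Acly −0.55 in 2i/L against GSK3i/L. With it, members lower were 2 in MEKi/L against S/L, and the sterol median of GSK3i/L against S/L was 0.67. 2i/L against S/L had 16 higher with medians of 0.54 (sterol) and 1.00 (fatty acid), and GSK3i/L at 24 days against S/L 18 higher and 4 lower. 2i/L against GSK3i/L had 4 higher and 2 lower, medians −0.16 and 0.040, and 2i/L against MEKi/L a fatty acid median of 0.27. MEKi/L against GSK3i/L had 3 higher and 11 lower, and 24 against 8 days 4 lower with medians −0.30 and −0.52. Calls among all genes moved too, from 5863 and 3658 to 2480 and 1617 in 2i/L against S/L. As the scores of S/L and 2i/L did not overlap, this fit cannot tell score from medium between them.

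After quantile normalization 2 were lower in MEKi/L and 3 in 2i/L against S/L (2i/L medians 0.58 and 1.67), the 24-day medians against S/L were 0.50 and 0.53, 2i/L against GSK3i/L had 5 higher and 4 lower (sterol median −0.26), MEKi/L against GSK3i/L 5 lower, and 24 against 8 days 8 lower (sterol median −0.31). After median centring 2 were lower in MEKi/L and 3 in 2i/L against S/L (2i/L medians 0.58 and 1.57), the 24-day sterol median was 0.48, 2i/L against GSK3i/L had 3 higher and 8 lower (sterol median −0.31), and MEKi/L against GSK3i/L 7 lower. With only the compared groups, 2 were lower in 2i/L against S/L, 5 higher against GSK3i/L and 7 higher against MEKi/L. MEKi/L against GSK3i/L then had 0 higher and 1 lower by limma (1 and 3 at an unadjusted p under 0.05), and 24 against 8 days 0 lower (13 unadjusted). Of all 14980 genes only 142 were then lower at 24 against 8 days. Without a filter 1 was lower in 2i/L against GSK3i/L, and without trend or robust variances 1 was lower at 24 days against S/L.

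Leaving out 1 library gave 0 to 1 lower in MEKi/L and in 2i/L against S/L, 6 to 7 higher and 1 to 2 lower at 24 days against S/L, 5 to 10 higher and 0 to 1 lower in 2i/L against GSK3i/L, 2 to 9 higher and 0 to 1 lower in 2i/L against MEKi/L, 1 to 3 higher and 1 to 6 lower in MEKi/L against GSK3i/L, and 0 to 1 higher and 1 to 19 lower (sterol median −0.47 to −0.30) at 24 against 8 days. A 24-day library left alone was assumed to vary like the other groups.

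The replicate numbers did not clearly pair the libraries. Deviations from the group means of all 18 same-numbered pairs of 8-day libraries correlated at −0.30 to 0.67 (6 over 0.1), and those of 36 other pairs at −0.59 to 0.39. The highest was between replicate 1 of MEKi/L and of 8-day GSK3i/L, the libraries that stood apart from their groups. With the replicate block members lower were 1 at 24 days against S/L and 8 at 24 against 8 days, and the other 30 counts and medians changed by less than those limits (members higher were 19 in MEKi/L, 27 in 2i/L and 8 at 24 days against S/L). In MEKi/L against GSK3i/L the replicate block changed no call, in all libraries or, as chosen after seeing the data, in those 6 alone (1 higher and 2 lower).

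Every member had 67 reads or more in each of the 8 libraries with plain values. In the 6 matched libraries a shift common to all genes is not seen.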

Other observations

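The 37 related lipid genes were also compared among the serum-free media. In 2i/L against GSK3i/L 11 were higher (29.7%, where 19.8% of all genes were) and 2 lower (5.41%, against 8.02%). In 2i/L against MEKi/L 5 were higher (13.5%, against 6.81%). In MEKi/L against GSK3i/L 4 were higher and 4 lower (10.8% each, against 12.2% and 5.65%), and between 8 and 24 days of GSK3i/L 11 were lower (29.7%, against 13.2%). In 2i/L against MEKi/L the largest were Cpt1a, the mitochondrial carnitine transferase, at 152 against 60.7 RPM (1.39 ± 0.37), Apoe at 790 against 427 RPM (0.90 ± 0.25) and Acsl3, an acyl-CoA synthetase, at 127 against 80.2 RPM (0.67 ± 0.16, limma adjusted p = 0.013). At 24 days of GSK3i/L Npc2, which binds cholesterol in lysosomes, was at 518 RPM against 164 RPM in serum (1.67 ± 0.25, adjusted p = 2.6e-04) and Fabp5 was at 11.7 against 34.8 RPM (−1.57 ± 0.41, adjusted p = 0.013).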
